A study of Arabidopsis thaliana with 8 samples.

Results

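The sulfate transporter (SULTR) family was examined in reproductive tissue of Arabidopsis thaliana. The 10 members were taken by family name and AGI code from a table of 22281 genes. The family was chosen because 1 member, SULTR2;1, had been seen to differ between the genotypes of these same libraries, so the mutant and wild-type values of the members are a description and carry no p-value of their own. RNA came from the triple mutant lsh1 lsh3 lsh4 (replicates 5 to 8), in which the ALOG genes LSH1, LSH3 and LSH4 are mutated, and from wild type (replicates 1 to 4), all in strain Col-0, grown in long days with no further treatment named. The labels describe inflorescence and floral meristems with flowers up to stage 8 and give no alleles and no plant age. The replicates are named independent by the series, but no label ties one to plants of its own. The p-values below therefore cover library-to-library spread, part of which may be technical.

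Plants take sulfur up as sulfate, and SULTR proteins carry it across membranes with protons. Group 1 transporters have high affinity and serve uptake into roots, group 2 transporters have low affinity and act in the vasculature, group 3 includes transporters of the chloroplast envelope, and group 4 transporters release sulfate from the vacuole. Inside the cell, ATP sulfurylase (APS genes) activates sulfate and APS reductase (APR genes) reduces it on the way to cysteine and glutathione. In sulfur-starved Arabidopsis the microRNA miR395 accumulates. It targets transcripts of ATP sulfurylases and of SULTR2;1, and so links the transporter of the vasculature to the assimilation pathway.

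The mature miR395 sequences and their sites in the transcripts are shown because they mark the 1 family member that shares this regulator with the APS genes. Of 6 miR395 loci, all on chromosome 1, the mature RNA has 1 of 2 sequences, written here from RefSeq (assembly TAIR10.1), 5′ to 3′, with the seed (bases 2 to 8) in capitals.
ath-miR395a, ath-miR395d and ath-miR395e: cUGAAGUGuuugggggaacuc
ath-miR395b, ath-miR395c and ath-miR395f: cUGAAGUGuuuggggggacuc
The seed UGAAGUG is the same in all 6. In the site with the fewest mismatches in each transcript, capitals mark the bases that pair with miR395a by Watson-Crick rules, and a G:U pair was counted as a mismatch.
SULTR2;1 (AT5G10180): aAGTTCtCCCAAACACTTCAa
APS1 (AT3G22890): GAGTTCCtCCAAACtCTTCAt
APS3 (AT4G14680): GAGTTCCtCCAAACtCTTCAt
APS4 (AT5G43780): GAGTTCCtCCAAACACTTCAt
The 4 sites lie in coding sequence, with 3 mismatches in the transporter, 3 in APS1, 3 in APS3 and 2 in APS4. Of 27440 coding genes 8 had a site with 3 mismatches or fewer (0.0292%), and these 4 are among them. The next best member, SULTR3;4, had 6 mismatches, and 2.19% of coding genes had a site with 6 or fewer. The other 8 members had 7 to 9. A match of this kind is a description of the letters and not of cleavage. The miR395 loci themselves were not analysed here.

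Levels are FPKM, fragments scaled by transcript length and by a factor for each library, so genes can be set side by side within a library. No read totals were used, and the steps between low FPKM values corresponded to an estimated divisor of 29600000 to 42600000 fragments per library. The deposited values share a common scale, so this divisor need not equal the fragment total of a library. Of the 10 members, 8 had a mean of at least 1 FPKM over the 8 libraries and entered the test with 17706 genes in all. For each gene the fold change is the difference of mean log2(FPKM + 1), mutant minus wild type, which understates the change of low genes, and its standard error (SE) and 95% interval come from limma. By limma, LSH4 (adjusted p = 0.00773) and LSH1 (adjusted p = 0.0423) fell. LSH4 fell to 5.51 ± 1.42 FPKM in the mutant, against 22.1 ± 2.08 in wild type (mean ± SD, n = 4 each), and LSH1 to 2.87 ± 0.967 in the mutant, against 10.1 ± 1.96 in wild type, while LSH3 overlapped between the genotypes with 13.5 ± 2.35 FPKM in the mutant and 17.2 ± 5.28 in wild type. In bulk tissue, fewer cells of a type and less RNA per cell cannot be told apart.

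Transcripts of the family were more abundant in the mutant as a sum. Summed over the 10 members they came to 160, 172, 141 and 148 FPKM in mutant replicates 5 to 8, against 103, 102, 109 and 106 FPKM in wild type replicates 1 to 4. The ranges did not overlap, and the mutant mean was 1.48 times that of wild type (155 ± 13.8 FPKM in the mutant and 105 ± 3.3 in wild type). Without SULTR2;1 the ratio was 1.44 (150 ± 14.2 FPKM in the mutant and 104 ± 3.35 in wild type), so the sum moved through more abundant members. By group, the ratio of mutant to wild type was 1.87 for group 2, 1.49 for group 3 and 1.27 for group 4, with no overlap between the genotypes in any of the 3. Group 2 holds SULTR2;1, the gene that led to the choice of the family, so nothing is read from its sum. The other gene of group 2, SULTR2;2, had a ratio of 1.46 and overlapped. In group 4 the ranges nearly met, at 30.2 FPKM in mutant replicate 8 and 29.7 FPKM in wild type replicate 3. Group 1, the low SULTR1;2 alone, had a ratio of 2.15 and overlapped.

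Among single members, 1 of the 8 tested rose past an adjusted p of 0.05 (limma, Benjamini-Hochberg over all genes tested) and 0 fell. Over all genes 24 of 17706 rose (0.136%). The family was chosen on this contrast, so nothing is read from these counts. All 4 mutant libraries lay above all 4 wild-type libraries in 4 of the 8 tested members, a pattern that 4.15% of all genes tested showed. The log2 fold change was positive in 8 of 8, against 47.6% of all genes, and its median was 0.47, against -0.01 over all genes. In the authors' deposited table of differential genes 3 members are listed, all as higher, where 2.17% of the genes in the expression table are so listed. SULTR2;1, which led to the choice of the family, is counted in the 4, in the 8, in the median and in the 3. It also entered the test through its mutant level, so nothing is read from these counts either. With libraries weighted in limma by their estimated variance the call widened to 5 of the 8 members, but the same fit called 1265 of all 17706 genes higher (7.14%). Without wild type replicate 2, mutant replicate 6 or mutant replicate 7 no member was called.

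**Figure D1:**
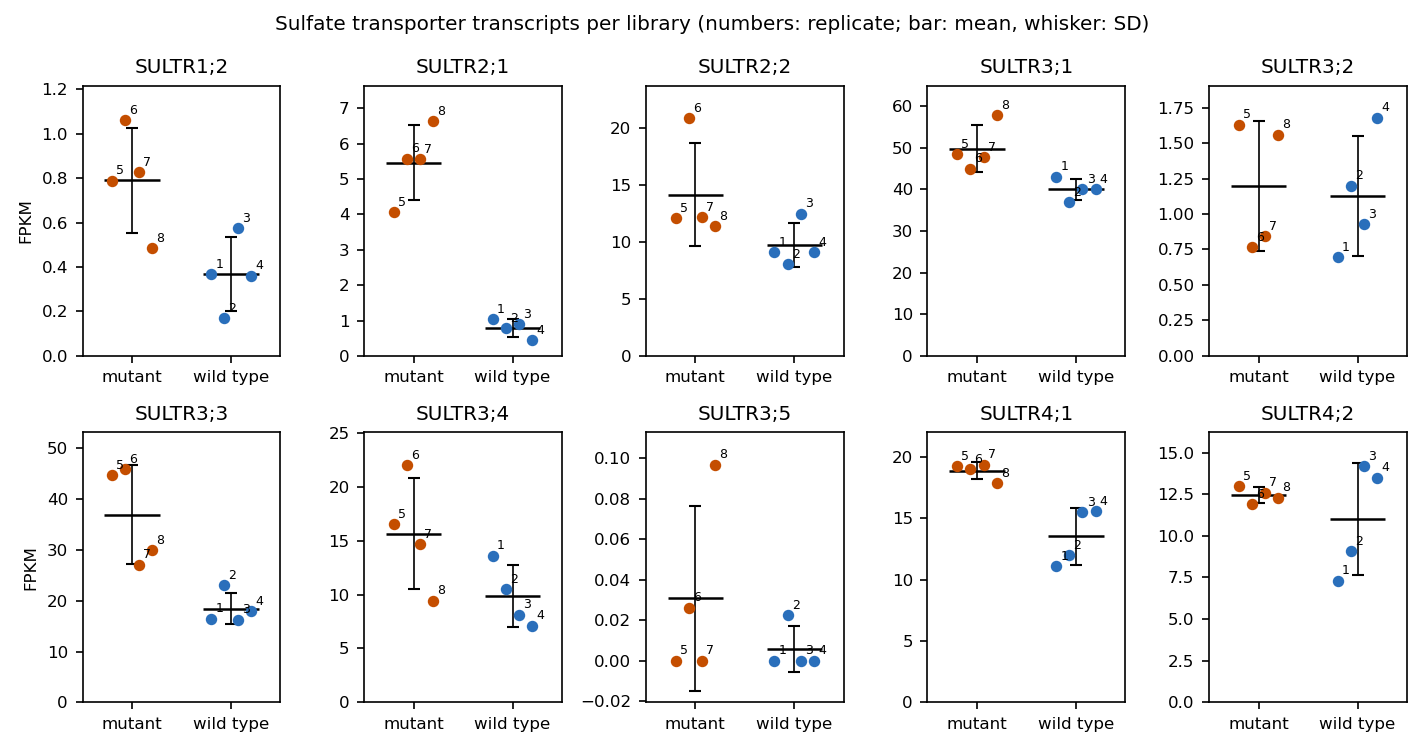
FPKM (y axis, from 0 except where the SD reaches below it) of each of the 10 transporters in the 4 mutant and 4 wild-type libraries. Points are libraries with their replicate numbers, bars are means and whiskers are SD, and the mutant points of the second panel, 4.06 to 6.63 FPKM, all stand above its wild-type points, 0.45 to 1.03 FPKM.

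SULTR2;1 (AT5G10180) is the low-affinity transporter of xylem parenchyma and phloem that moves sulfate from root to shoot. It had 4.06, 5.58, 5.57 and 6.63 FPKM in mutant replicates 5 to 8, against 1.03, 0.776, 0.895 and 0.45 FPKM in wild type replicates 1 to 4. The lowest mutant library was above the highest wild-type library, so the genotypes did not overlap, and mutant replicate 5 was the lowest of its group. The mutant mean was 6.92 times the wild-type mean (5.46 ± 1.06 FPKM in the mutant and 0.788 ± 0.248 in wild type), a log2 fold change of 1.85 (SE 0.17, 95% interval 1.47 to 2.23). It was the 1 member called. Its wild-type mean was under 1 FPKM, so the gene entered the test through its mutant level. Its gene model has 1 transcript of 2560 bases, and its values corresponded to 294, 468, 512 and 450 fragments in the mutant libraries and 70, 75, 64 and 42 in the wild-type libraries. The authors' deposited table lists it at a log2 fold change of 2.8. Pseudocounts of 0.5 and 0.1 in place of 1 gave 2.21 and 2.67.

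The other member of group 2, SULTR2;2 (AT1G77990, AST56 in RefSeq), is a low-affinity transporter of phloem and bundle sheath. It had 12.1, 20.9, 12.2 and 11.4 FPKM in the mutant, against 9.15, 8.05, 12.5 and 9.15 FPKM in wild type. Mutant replicate 6 stood well above the other libraries, wild type replicate 3 was higher than 3 of the mutant libraries, and the genotypes overlapped. This gave a log2 fold change of 0.48 (SE 0.20, interval 0.02 to 0.93), which did not pass the test and was 0.28 without mutant replicate 6. The coding sequences of the group 2 genes were 65.5% identical, and the group's transcripts shifted in make-up: SULTR2;1 supplied 4.06 of 16.2, 5.58 of 26.5, 5.57 of 17.8 and 6.63 of 18.0 FPKM in mutant replicates 5 to 8, against 1.03 of 10.2, 0.776 of 8.83, 0.895 of 13.4 and 0.45 of 9.6 FPKM in wild type replicates 1 to 4.

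Next to it on chromosome 1, in the opposite orientation and with 0 coding genes between them, lies SULTR1;2 (AT1G78000), the main high-affinity transporter of root uptake and the only group 1 gene with values here. It was low throughout, with 0.789, 1.06, 0.827 and 0.486 FPKM in the mutant, against 0.369, 0.17, 0.575 and 0.361 FPKM in wild type. Mutant replicate 8 fell below wild type replicate 3, so the genotypes overlapped. Its mean was under 1 FPKM and it was not tested. In a fit without that minimum the log2 fold change was 0.39 (SE 0.12, interval 0.11 to 0.67). The annotation gives it 7 transcripts, and SULTR2;2 has 1.

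Group 3 held the most abundant transporter transcripts. SULTR3;1 (AT3G51895), which imports sulfate into chloroplasts, had 48.4, 45.0, 47.7 and 57.9 FPKM in the mutant, against 43.1, 36.9, 40.0 and 40.1 FPKM in wild type. All mutant libraries were above all wild-type libraries, though the lowest mutant library (45.0 FPKM) was close to the highest wild-type library (43.1 FPKM). A log2 fold change of 0.30 (SE 0.09, interval 0.10 to 0.51) did not pass the test.

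SULTR3;3 (AT1G23090, AST91 in RefSeq), a member of the same group for which no single role is given here, had the second-largest log2 fold change among the 8 tested members. It had 44.7, 45.9, 27.1 and 30.0 FPKM in the mutant, against 16.5, 23.0, 16.3 and 18.0 FPKM in wild type. The mutant libraries fell into a higher pair, replicates 5 and 6, and a lower pair, replicates 7 and 8, and both pairs lay above wild type. The mutant mean was 2.0 times that of wild type, with a log2 fold change of 0.94 (SE 0.19, interval 0.51 to 1.37). It did not pass the test over all genes, and the authors' deposited table lists it at 1.0. With library weights in limma the value was 0.55.

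SULTR3;4 (AT3G15990), which in Arabidopsis also carries the name SPDT for its part in the distribution of phosphorus, had 16.5, 22.0, 14.7 and 9.44 FPKM in the mutant, against 13.6, 10.5, 8.13 and 7.12 FPKM in wild type. The genotypes overlapped, since mutant replicate 8 lay below wild type replicates 1 and 2. Its log2 fold change of 0.60 (SE 0.26, interval 0.01 to 1.19) did not pass the test. Leaving out wild type replicates 1 and 2 gave 0.89.

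The other members of group 3 were scarce. SULTR3;2 (AT4G02700) had 1.63, 0.766, 0.844 and 1.56 FPKM in the mutant, against 0.696, 1.2, 0.929 and 1.68 FPKM in wild type, with wide spread in both genotypes. Its log2 fold change was 0.05 (SE 0.21, interval -0.44 to 0.53), and its sign turned in some fits, to -0.06 without wild type replicate 1. SULTR3;5 (AT5G19600), known to raise the transport activity of SULTR2;1 when both are expressed together, was listed at 0 in mutant replicates 5 and 7 and in wild type replicates 1, 3 and 4. It had 0.0262 and 0.0969 FPKM in mutant replicates 6 and 8, against 0.0227 FPKM in wild type replicate 2, which corresponded to 2, 6 and 2 fragments. It was thus at or near 0 in all libraries, those with the highest SULTR2;1 included, and no fold is given for it.

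The vacuolar exporters of group 4 were the steadiest members in the mutant. SULTR4;1 (AT5G13550) had 19.3, 19.0, 19.4 and 17.9 FPKM in the mutant, against 11.1, 12.0, 15.5 and 15.6 FPKM in wild type. All mutant libraries lay above all wild-type libraries, and within wild type replicates 1 and 2 were lower than replicates 3 and 4. The log2 fold change was 0.46 (SE 0.11, interval 0.20 to 0.72) and did not pass the test, and the authors' deposited table lists it at 0.48. It was 0.27 without wild type replicates 1 and 2.

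Its paralogue SULTR4;2 (AT3G12520) had 13.0, 11.9, 12.6 and 12.3 FPKM in the mutant, against 7.31, 9.07, 14.2 and 13.5 FPKM in wild type. Here the mutant libraries lay between a low and a high pair of wild-type libraries. The log2 fold change was 0.20 (SE 0.19, interval -0.22 to 0.63), and -0.15 without wild type replicates 1 and 2. The coefficient of variation was 3.75% in the mutant and 30.6% in wild type, and for SULTR4;1 it was 3.56% in the mutant and 17.1% in wild type. With 81.3% identity over the coding sequence these were the most alike pair of the family. If reads were shared between them in the authors' counting, which was not tested, either value alone would be less certain. Their sum was 31.3 ± 0.944 FPKM in the mutant and 24.6 ± 5.68 in wild type.

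**Figure D2:**
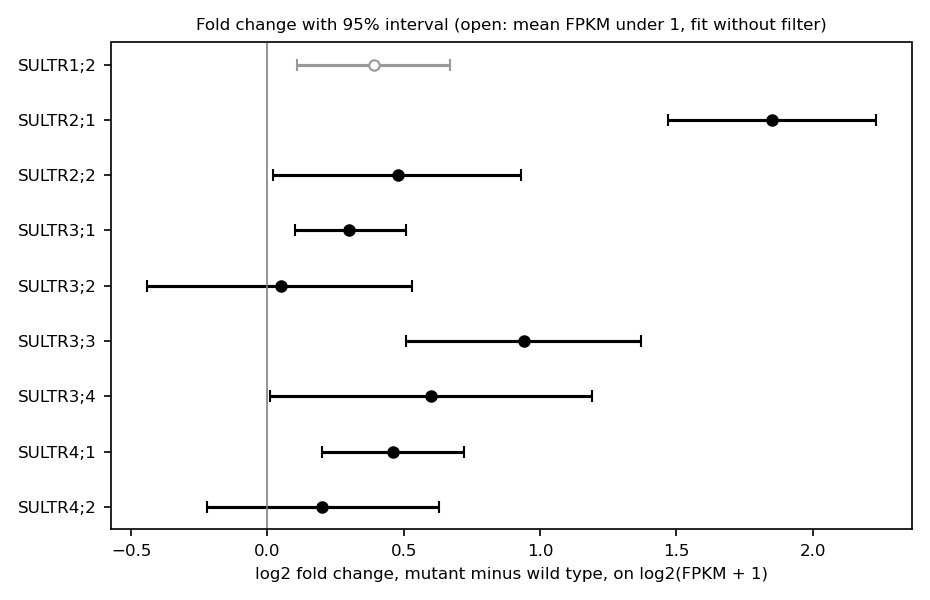
Log2 fold change of 9 transporters, mutant minus wild type on log2(FPKM + 1) (x axis), with 95% intervals from limma. The open point is SULTR1;2, whose mean was under 1 FPKM and which comes from the fit without that minimum, and SULTR3;5, at or near 0 in all libraries, is not plotted. The second row, at 1.85, stands apart from the other 8, which lie between 0.05 and 0.94.

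In both genotypes the same 3 genes led the order of mean levels and the same 2 genes came last, while the genes between them changed places. SULTR3;1 led in the mutant at 45.0 to 57.9 FPKM and in wild type at 36.9 to 43.1 FPKM. SULTR3;3 came second, with 27.1 to 45.9 FPKM in the mutant, a range that touched that of the leading gene, and with 16.3 to 23.0 FPKM in wild type, a range clear of it. SULTR4;1 was the third in both, clear of the second. In the mutant SULTR3;4, SULTR2;2 and SULTR4;2 followed, and in wild type SULTR4;2, SULTR3;4 and SULTR2;2, in each case with ranges that overlapped between neighbours. SULTR2;1 came next in the mutant, its range apart from both neighbours, whereas in wild type SULTR3;2 came before it and its range overlapped with both neighbours. In both, SULTR1;2 was the last but 1, overlapping with the gene before it, and SULTR3;5 was the last, clear of it.

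As a share of the summed family FPKM, SULTR3;1 supplied 26.1% to 39.2% in the mutant libraries and 36.2% to 41.9% in the wild-type libraries. SULTR3;3 supplied 19.2% to 27.9% in the mutant and 15.0% to 22.6% in wild type, so in both cases the genotypes overlapped. The share of SULTR2;1 did not overlap, with 2.53% to 4.48% in the mutant and 0.425% to 1.0% in wild type. Even at its highest it remained a minor part of the family's transcripts.

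**Figure D3:**
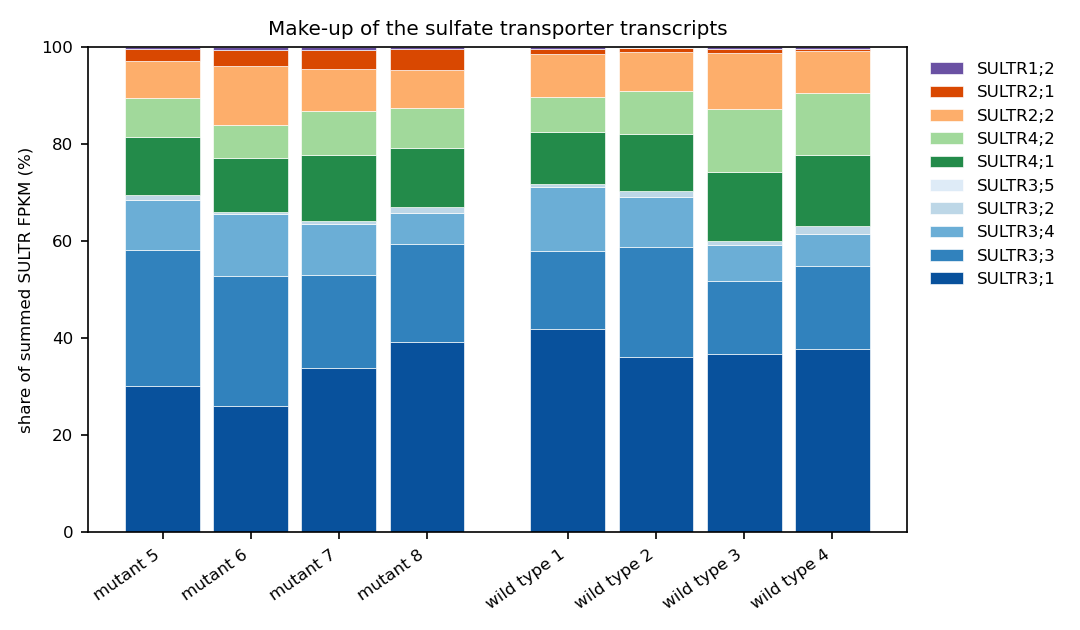
Share of the summed FPKM of the 10 transporters (y axis, %) held by each member in the 4 mutant libraries and the 4 wild-type libraries. Blue marks group 3, green group 4, orange group 2 and purple group 1, and the dark orange band is 2.53% to 4.48% in the mutant and 0.425% to 1.0% in wild type.

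Of the 4 relatives outside the 10 members, the group 1 genes AT4G08620 and AT1G22150 were not analysed here. The molybdate transporter genes MOT1 and MOT2, once counted in the family, were both measured and neither passed the test. MOT2 (AT1G80310), the exporter of molybdate from the vacuole, had 4.22, 2.09, 2.3 and 4.23 FPKM in the mutant, against 0.851, 1.16, 1.43 and 1.31 FPKM in wild type, with no overlap (log2 fold change 0.91, limma adjusted p = 0.153). The authors' deposited table lists it at 1.43. MOT1 (AT2G25680) overlapped between the genotypes, with 4.51 ± 1.21 FPKM in the mutant and 3.97 ± 1.54 in wild type (0.17, limma adjusted p = 0.805).

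The assimilation genes downstream of transport had small fold changes for the most part. Of 22 genes for sulfate activation, reduction, and cysteine and glutathione synthesis, 0 passed the test in either direction, 19 had positive and 3 negative log2 fold changes, and 3, all positive, had an unadjusted p under 0.05. Their median was 0.18. Of all 17706 genes tested 1224 were higher in the mutant at an unadjusted p under 0.05 (6.91%), and 47.6% had a positive fold change. APS3 (AT4G14680), which carries the miR395 site shown above, had 10.4, 13.2, 12.3 and 15.5 FPKM in the mutant, against 9.96, 8.37, 8.76 and 7.69 FPKM in wild type, with no overlap (0.51, limma adjusted p = 0.17). APS1 overlapped, with 93.3, 117, 98.7 and 111 FPKM in the mutant, against 164, 123, 84.2 and 72.0 FPKM in wild type (-0.01, limma adjusted p = 0.995), and so did APS4, with 12.0 ± 1.84 FPKM in the mutant and 9.89 ± 1.33 in wild type (0.25, limma adjusted p = 0.464). The log2 fold changes of the 4 transcripts with a site shown above were thus 1.85 for the transporter and -0.01 to 0.51 for the APS genes, and the difference between them was not tested.

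APR1 (AT4G04610), an APS reductase, had 50.0, 41.2, 49.3 and 43.1 FPKM in the mutant, against 13.4, 19.7, 39.2 and 19.7 FPKM in wild type. The genotypes did not overlap, and wild type replicate 3 came close to the lowest mutant library (log2 fold change 1.07, limma adjusted p = 0.173). APS3 and APR1 are the 2 genes of this list in the authors' deposited table, at 0.56 and 1.0.

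Genes known to rise in sulfur-starved plants had positive fold changes without passing the test. Of 10 such genes 8 were tested, 0 passed, 8 were positive and 5 had an unadjusted p under 0.05, with a median log2 fold change of 1.03. The 5 stand beside the 6.91% of all genes that were higher at that p. Of the 9 in the expression table, with no minimum level, 8 were positive and 1 negative, and the median was 0.88. LSU1 (AT3G49580), of a small family induced by low sulfur, had 5.56, 3.28, 3.45 and 2.56 FPKM in the mutant, against 0, 0.168, 2.45 and 0.405 FPKM in wild type (1.57, limma adjusted p = 0.164). Its wild-type mean, 0.756 FPKM, was under 1, so it too entered the test through its mutant level. SDI1 (AT5G48850), a repressor of glucosinolate synthesis under sulfur limitation, had 17.7, 11.2, 18.4 and 5.44 FPKM in the mutant, against 0.895, 2.23, 7.44 and 2.92 FPKM in wild type, and overlapped through wild type replicate 3 (1.78, limma adjusted p = 0.191). The authors' deposited table lists SDI1 at 1.97 and GGCT2;1, a glutathione-degrading enzyme gene of the same list, at 1.41. It lists 2.17% of the genes in the expression table as higher. The count that passed was 2 without wild type replicate 3, where 79 of all 17734 genes tested were called higher (0.445%), and 8 with library weights in limma, where 7.14% of all genes were.

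SULTR2;1 and these markers did not order the libraries alike. The mean log2(FPKM + 1) of the 8 tested markers was 4.14, 4.0, 4.24 and 3.23 in mutant replicates 5 to 8, against 2.21, 2.68, 3.78 and 2.68 in wild type replicates 1 to 4. Mutant replicate 8 was thus below wild type replicate 3 for the markers, while for SULTR2;1 the same libraries had 6.63 FPKM in the mutant, the highest value of all, and 0.895 FPKM in wild type. SULTR1;2, SULTR2;2 and SULTR4;2 were also lower in mutant replicate 8 than in wild type replicate 3, and the other members were higher. The part of sulfur status in the transporter values was not tested. None of the 5 transcription factor genes known to act on sulfur genes passed the test, and none had an unadjusted p under 0.05 (median -0.02). Smallest in p were HY5 (-0.23, limma adjusted p = 0.746), which encodes a light-signalling factor, and EIL1 (0.07, limma adjusted p = 0.889). SLIM1, the factor known to drive low-sulfur responses, had 10.3 ± 0.259 FPKM in the mutant and 10.5 ± 0.541 in wild type.

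**Figure D4:**
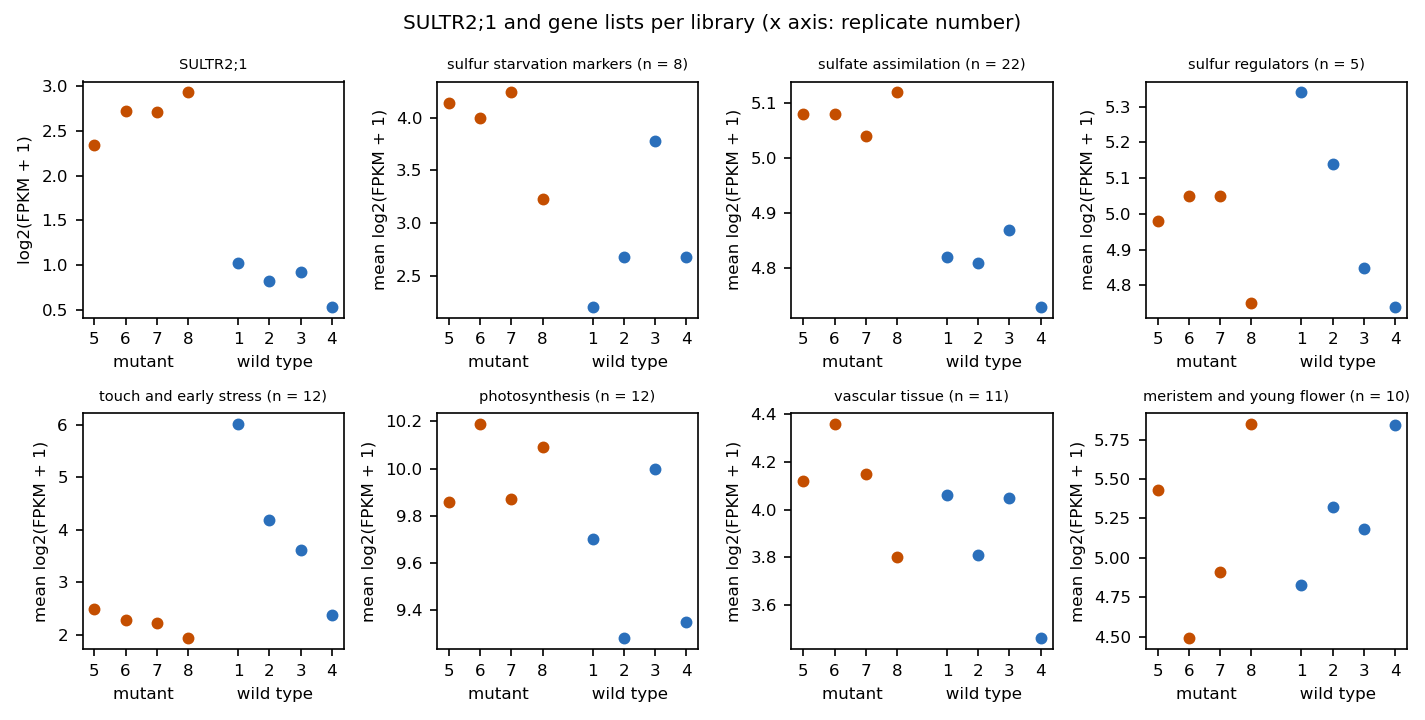
Log2(FPKM + 1) of the group 2 transporter gene (first panel) and mean log2(FPKM + 1) over the tested genes of 7 lists (y axes, each with its own range and not starting at 0) in mutant replicates 5 to 8 and wild type replicates 1 to 4 (x axis). In the sulfur starvation panel mutant replicate 8, at 3.23, lies below wild type replicate 3, at 3.78, while in the first panel the genotypes are apart.

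Markers of other tissues and of handling also differed between libraries. Vascular genes, which mark the tissue where group 2 transporters are known to act, had positive fold changes in 11 of 11 with 0 past the test (median 0.25), and their summed level was 206 to 334 FPKM in the mutant and 162 to 262 in wild type. Their highest mean level, 4.36 log2 units, was in mutant replicate 6, which also held the highest value of SULTR2;2, whereas SULTR2;1 was highest in mutant replicate 8, where the vascular mean was the lowest of the mutant libraries (3.8). Photosynthesis genes were positive in 12 of 12 with 0 past the test (median 0.37). Of these 7 had an unadjusted p under 0.05, where 6.91% of all genes were higher at that p, and 1, LHCB4.2, is in the authors' deposited table, at 0.65. The list had a summed level of 13350 to 17483 FPKM in the mutant and 9315 to 15322 in wild type. Of 12 meristem and young flower markers 10 were tested, 3 positive and 7 negative with 0 past the test (median -0.13). Their sums were 284 to 689 FPKM in the mutant and 365 to 695 in wild type. STM, which defines shoot meristems, had 62.1 to 69.0 FPKM in the mutant and 76.8 to 98.6 in wild type (-0.37, limma adjusted p = 0.145). It was the 1 tested gene of this list without overlap. All mutant libraries lay below all wild-type libraries in 3.74% of all genes. CLV1, another meristem gene, overlapped (0.08, limma adjusted p = 0.792). The stem cell genes CLV3 and WUS were detected in every library at 0.152 to 1.7 FPKM. The 6 late anther genes summed to 9.76 to 11.6 FPKM in the mutant and 8.84 to 12.3 in wild type, most of it LAP6, while CYP703A2 and MS2 were listed at 0 in all 4 mutant libraries and in 3 of the 4 wild-type libraries.

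Touch, wounding and early stress genes were negative in 12 of 12 tested with 0 past the test, and 9 had an unadjusted p under 0.05 (median -1.83), where 995 of all 17706 genes were lower at that p (5.62%). Of the tested genes CBF2, CML37 and WRKY40 had a mean under 1 FPKM in the mutant and entered the test through their wild-type level. Over the 14 genes of the list, all in the expression table, 14 were negative with no minimum level (median -1.73). In 7 tested genes all mutant libraries lay below all wild-type libraries, a pattern that 3.74% of all genes showed. Of the list 9 are in the authors' deposited table, which holds 822 genes in either direction, beside 22281 in the expression table. Among them are CBF2, a cold-response factor, at -4.04 and ZAT12, a zinc finger factor of stress responses, at -3.4. The summed level of the list was 87.3 to 203 FPKM in the mutant and 131 to 1551 in wild type. Its 12 tested genes averaged 2.49, 2.28, 2.22 and 1.93 log2 units in mutant replicates 5 to 8, against 6.02, 4.19, 3.61 and 2.37 in wild type replicates 1 to 4. Over the same wild-type libraries SULTR3;4 had 13.6, 10.5, 8.13 and 7.12 FPKM, the same order, and both group 4 genes had their lowest values in replicates 1 and 2. In mutant replicates 5 to 8 the order differed, since SULTR3;4 had 16.5, 22.0, 14.7 and 9.44 FPKM and was highest in replicate 6. The part of vascular, green or stressed tissue in the transporter values was not tested. Without wild type replicates 1 and 2 the log2 fold change was 1.95 for SULTR2;1 and did not pass. In that fit, limma on 6 libraries, 0 genes were called, while 782 higher and 519 lower ones had an unadjusted p under 0.05.

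The 5 tested genes whose profile over the 8 libraries was most like that of SULTR2;1 were NRT1.5, EXLB1, BCAT-2, AT2G40460 and AT1G33811. Likeness was the root mean square difference of log2(FPKM + 1) after each gene's mean was subtracted, and it was 0.321, 0.353, 0.361, 0.367 and 0.371 log2 units in that order. NRT1.5 (AT1G32450), a nitrate transporter gene of root xylem loading, had 3.75, 2.31, 4.66 and 3.71 FPKM in the mutant, against 0.416, 0.329, 0.56 and 0.531 FPKM in wild type. EXLB1 (AT4G17030), an expansin-like gene, had 2.41, 2.89, 4.43 and 5.39 FPKM in the mutant, against 1.92, 0.653, 0.462 and 0.176 FPKM in wild type. BCAT-2 (AT1G10070), an aminotransferase gene of branched-chain amino acids, had 2.84, 2.12, 2.1 and 4.54 FPKM in the mutant, against 0.394, 0.296, 0.987 and 0.178 FPKM in wild type. In all 5 genes the mutant libraries lay above all wild-type libraries, a pattern that 4.15% of all genes tested showed. The choice by likeness to SULTR2;1 favours this pattern. NRT1.5, EXLB1 and BCAT-2 had wild-type means of 0.459, 0.802 and 0.464 FPKM. These means were under 1, so these genes entered the test through their mutant level. No other transporter of the family was among the 5. The measure also depends on the size of the fold change. That was 1.85 log2 units for SULTR2;1 and at most 0.94 for the other tested members, so nothing is read from their absence. Since likeness was measured over the same libraries, it largely restates the difference between the genotypes.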

How the data were processed

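The submitters' processing notes name RSEM, DESeq2 and the genome build TAIR10, with no versions and no roles. Libraries were made after poly-A enrichment, per the labels. Expression was deposited by the authors as FPKM, with a column for each library. Over the expressed genes the median-of-ratios factor of every library was 1.0017, so the deposited FPKM already share 1 scale. Per the file headers, a further table by the authors holds the log2 fold changes between the genotypes with raw and adjusted p-values. It has 825 rows for 822 genes.

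Here, log2(FPKM + 1) of 17706 genes with a mean FPKM of at least 1 was modelled in limma 3.58.1 under R 4.3.3 (mean-variance trend, no covariates, 2-sided), with Benjamini-Hochberg adjustment and a threshold of 0.05. The code was first tested on simulated data with known changes. Values are mean ± SD over 4 libraries per genotype. No count model was fitted, since FPKM are not counts. Fragments behind a value were estimated from whole-number steps among low FPKM values, of which 98.5% to 99.6% per library lay within 0.1 of a whole step. FPKM sums ran from 826022 to 906962, and 1233 to 2461 genes per library were listed at 0. Sites for miR395 were searched in RefSeq transcripts of assembly TAIR10.1, in which 22154 of 22281 AGI codes were found. Its build differs in name from the authors' TAIR10, so no coordinates are given.

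The members, the gene lists and the tests were chosen with earlier results of these data known. The lists cover the rest of the family, assimilation, sulfur starvation, sulfur regulators, miR395 loci, and markers of the meristem, vascular, green, stressed and late anther tissue. Named genes are the members, in each of the first 4 lists the called genes or else the 2 with the smallest p, the 5 profiles most like that of SULTR2;1 and the mutated genes. Other genes, such as APS1, APS4, SLIM1 and those named from the marker lists, were named after their values were seen. Alternatives were pseudocounts of 0.5 and 0.1, no minimum or a mean FPKM of 5, rescaling to TPM, median-of-ratios scaling, robust moderation, library weights, leaving out each library, and, added after the data were seen, leaving out wild type replicates 1 and 2. Figures used matplotlib 3.10.9 under Python 3.11.15.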

Additional observations from a re-analysis of the deposited data

Results flagged for a closer look

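In 11 of 96 groups of 4 libraries, over 48 genes of the family and the sulfur lists, 1 library lay far from the other 3. The rule flags about 1 in 20 groups when values are independent and normally distributed. FPKM of related genes need not meet this, and a group with 3 libraries at 0 and 1 above 0 is always flagged. The count is therefore not set against chance. Among the transporters the flagged groups were SULTR2;2 in the mutant and SULTR3;5 in wild type. SULTR2;2 had 20.9 FPKM in mutant replicate 6 against 11.4 to 12.2 FPKM in the other mutant libraries. SULTR3;5 had 0.0227 FPKM in wild type replicate 2 and 0 in the other wild-type libraries. The outlying value of SULTR2;2 lies above all wild-type values and lifts its mutant mean.

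Wild type replicate 3 was the outlying library in 4 groups, all high. It had 50.0 FPKM of APR2, 77.1 FPKM of APR3, 93.9 FPKM of SIR (sulfite reductase) and 2.45 FPKM of LSU1. Mutant replicate 8 was the outlying library in 3 groups. It was high for the APS kinase genes APK1 (38.2 FPKM) and APK2 (46.2 FPKM), and low for SHM7 (26.7 FPKM). Mutant replicate 5 was low for SERAT1;1 (39.6 FPKM) and was the 1 mutant library with LSU4 above 0 (0.127 FPKM).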

How the results depend on the processing

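The counts of called genes depended on the processing. Genes called higher numbered 24 and lower 9. They numbered 7 and 5 with no minimum FPKM, 14 and 5 after rescaling to TPM, 1265 and 1058 with library weights, 0 to 79 and 0 to 25 when 1 library was left out, and 0 and 0 without wild type replicates 1 and 2, an alternative chosen after seeing the data (limma, 782 and 519 at an unadjusted p under 0.05). The 0 calls among single omissions came without wild type replicate 2, where 843 higher and 582 lower genes had an unadjusted p under 0.05. The members called numbered 1, but 0 at a mean FPKM of 5, which SULTR2;1 does not reach, 5 with library weights, 0 to 1 when 1 library was left out and 0 without wild type replicates 1 and 2. The log2 fold change of SULTR2;1 stayed between 1.75 and 2.67, and it passed in 5 of 8 fits that left out 1 library. That of SULTR3;2 turned to -0.16 with library weights, ran from -0.06 to 0.16 when 1 library was left out (-0.06, -0.05 and -0.03 without wild type replicate 1, mutant replicate 5 and mutant replicate 8), and turned to -0.07 without wild type replicates 1 and 2, and that of SULTR4;2 to -0.15 without wild type replicates 1 and 2. The other 5 tested members kept a positive sign in all alternatives run. With library weights 1 relative (of MOT1 and MOT2), 6 assimilation genes and 8 starvation markers were called, where 0 were called otherwise, except that leaving out 1 library gave 0 to 1 and 0 to 2, the upper values without wild type replicate 3. The causes were not tested. No relative reaches a mean FPKM of 5, so that alternative gave no value for them. No paired analysis was possible because the genotypes share no replicate number. Depth limits the low members most: SULTR3;5 rests on 0 to 6 fragments per library.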
